A study of Mus musculus with 6 samples.

Results

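The 46 genes described here encode the scaffold proteins that hold the postsynaptic density together and the adhesion proteins that join the pre- and postsynaptic membranes. They were chosen by name, by family, from the 25239 genes of the count tables, with earlier results of these data known, and all 46 were found and tested. They comprise 20 scaffold genes and 26 adhesion genes. RNA was sequenced from the hippocampus of 6 male C57BL/6 mice aged 6 to 8 weeks, 1 library per mouse. The 3 WT mice carried both Ube3a alleles (Ube3a m+/p+), and the 3 Ube3a m-/p+ mice lacked the maternal allele and kept the paternal one. UBE3A is an E3 ubiquitin ligase, and in most neurons only its maternal allele is expressed, so mice without that allele serve as a model of Angelman syndrome. The labels name no treatment of either group, and the sources used here do not say whether the mice were littermates.

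At an excitatory synapse, membrane-associated guanylate kinases (MAGUKs) such as PSD-95 bind the tails of glutamate receptors and neuroligins. The GKAP proteins link the MAGUKs to SHANK proteins, and Homer proteins tie SHANK to metabotropic glutamate receptors. Across the cleft, presynaptic neurexins and LAR-type receptor phosphatases bind neuroligins, LRRTMs, SLITRKs, SALMs and IL1RAPL1, while SynCAMs bind each other and cerebellins bridge neurexins to postsynaptic receptors. Several of these genes are linked to autism and intellectual disability, and the hippocampus, a region needed for memory, expresses most of the families.

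Many members come as paralogues that encode related proteins with different base composition, and the members' fold changes followed base composition, as described below. Identity over the whole proteins was not computed. Sequences of 3 pairs are shown for that reason. For each of 7 pairs, picked with the fold changes known, the longest run of identical amino acids was located, and its first codons, up to 24, were read from the GENCODE M21 transcripts (GRCm38, the build named mm10 in the submitters' processing notes). Exon numbers are those of the transcript with the longest coding sequence. Capitals mark the bases that differ between the paralogues, and every difference keeps the amino acid. The neuroligin stretch lies in coding exon sequence at chr3:25435864-25435935, minus strand, exon 7, for Nlgn1 and at chr11:69826755-69826826, minus strand, exon 7, for Nlgn2.
Nlgn1: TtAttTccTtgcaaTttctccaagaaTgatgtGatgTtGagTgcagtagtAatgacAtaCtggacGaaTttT
Nlgn2: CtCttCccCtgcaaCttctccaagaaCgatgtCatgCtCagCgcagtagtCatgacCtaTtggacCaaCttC
Of these 72 bases 16 differ, and G or C stands at 45.8% of the third codon positions in Nlgn1 and at 83.3% in Nlgn2. The neurexin stretch lies at chr12:90332153-90332224, plus strand, exon 20, for Nrxn3 and at chr19:6531888-6531959, plus strand, exon 22, for Nrxn2.
Nrxn3: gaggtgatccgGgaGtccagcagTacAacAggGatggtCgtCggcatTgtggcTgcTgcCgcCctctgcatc
Nrxn2: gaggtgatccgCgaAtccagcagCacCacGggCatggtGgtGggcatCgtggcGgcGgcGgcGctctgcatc
All 13 differences fall on the third position of a codon. Over the third positions of all 24 codons of the stretch, G or C stands at 75.0% in Nrxn3 and 95.8% in Nrxn2. The SynCAM stretch, of 14 codons, lies at chr16:66882746-66882787, minus strand, exon 2, for Cadm2 and at chr1:173346435-173346476, minus strand, exon 3, for Cadm3.
Cadm2: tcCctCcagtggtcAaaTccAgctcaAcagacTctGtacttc
Cadm3: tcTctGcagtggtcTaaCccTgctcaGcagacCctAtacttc
Here the third positions were G or C in 57.1% and 64.3% of codons. By that measure the stretch was richer in G and C in the paralogue with the GC-richer transcript in 5 of the 7 pairs. It was equal in Ptprd and Ptprs at 66.7%, and the other way round in Homer2 (79.2%) and Homer3 (66.7%). Among the 5 pairs, the gap was smallest in the SynCAMs, over 14 codons, and next smallest in Dlg2 (45.8%) and Dlg4 (54.2%).

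Each library held 7293272 to 8675252 counts on genes in WT mice and 8871052 to 11314409 in Ube3a m-/p+ mice, from 39.0% to 41.8% of the reads listed, and 14445 genes passed the filter on low counts. Levels by mouse are in CPM, a gene's count scaled to the total of gene counts of its library. Ube3a itself was at 103.5, 141 and 151 CPM in WT mice 1 to 3, and at 96.8, 82.9 and 80.6 CPM in the Ube3a m-/p+ group. Every Ube3a m-/p+ mouse was below every WT mouse, by a log2 fold change of -0.58 ± 0.12 (SE, adjusted p = 0.0363), but the mice numbered 1 of both genotypes were close. The counts do not separate the missing part of the gene from the rest. Corrected for GC content and length, the Ube3a log2 fold change was -0.20 (adjusted p = 0.241). The libraries also stood apart by base composition. The Spearman correlation, over all genes, between GC content and a library's deviation from the mean of the 6 was negative in WT mouse 2 (-0.506) and mouse 3 (-0.571), positive in Ube3a m-/p+ mouse 2 (0.526) and mouse 3 (0.528), and near 0 in the mice numbered 1 (0.0455 for WT, 0.0589 for Ube3a m-/p+). In mice 2 and 3 the GC-related shift and the genotype cannot be told apart. The marker genes of neurons and of the dentate gyrus and CA fields were all detected.

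One member passed both thresholds, an adjusted p below 0.05 and a change of more than 1.2-fold, by which a gene is called differentially expressed here. Cadm2 (SynCAM2), a homophilic adhesion protein of axons and synapses, fell 1.44-fold in Ube3a m-/p+ mice. That call depended on single mice and on the GC correction, with the values given beside Cadm2 below. Over all genes tested, 2.01% were differentially expressed, and 0.99% were lower, so 1 of 46 members (2.17%) is near the background. None of the 20 scaffold genes passed. At an unadjusted p below 0.05 there were 15 members (32.6%, against 24.6% of all genes tested). Of these, 8 were higher (17.4%, background 12.2%) and 7 lower (15.2%, background 12.4%) in Ube3a m-/p+ mice. The 3 Ube3a m-/p+ mice lay above the 3 WT mice for 3 members (Ptprf, Cadm3 and Lrfn1; background 10.8%) and below them for 6 (Dlg2, Dlgap1, Cnksr2, Lrrtm4, Slitrk5 and Cadm2; background 14.2%). The median log2 fold change was 0.02 over the members, 0.05 over the scaffold genes and -0.06 over the adhesion genes, beside 0.0025 over all genes. Summed over the 46 genes, WT mice 1 to 3 had 10710, 10030 and 9601 CPM, and the Ube3a m-/p+ group had 10440, 10500 and 10670 CPM. The summed levels overlapped, with WT mouse 1 the highest of the 6.

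**Figure D1:**
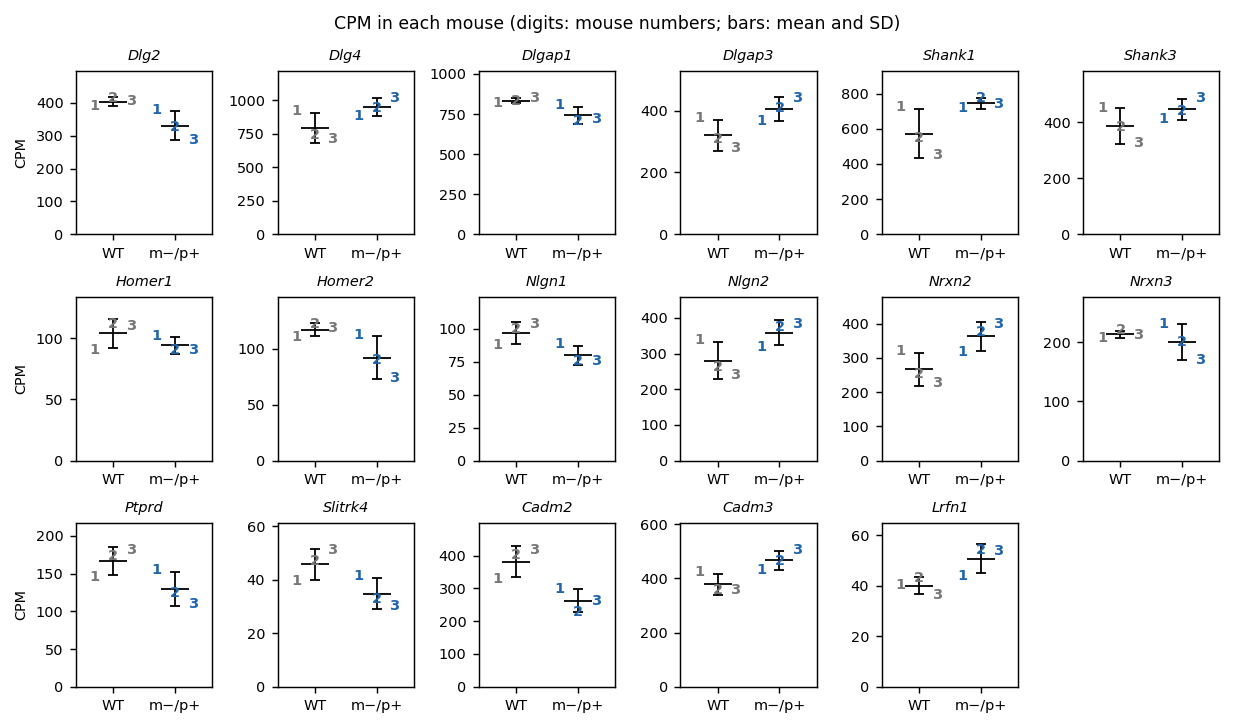
Level of 17 members in each mouse, in CPM, with vertical axes that start at 0. Digits are mouse numbers, bars the mean and SD of 3 mice; the genotypes separate fully in Dlg2, Dlgap1, Cadm2, Cadm3 and Lrfn1, and in most other panels the 2 mice numbered 1 lie close together.

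Among the MAGUKs, which anchor receptors and channels in the postsynaptic density, the most abundant per length was Dlg4 (PSD-95). In WT mice Dlg4 stood at 125 ± 17.6 CPM per kb of its longest transcript (SD, n = 3), followed by Dlg2 (PSD-93) at 51.7 ± 1.65, Dlg3 (SAP102) at 50.9 ± 2.79 and Dlg1 (SAP97) at 16.4 ± 0.0486. Dlg2 and Dlg3 lay within 1 SD of each other, while Dlg4 and Dlg1 stood clear of their neighbours. Per kb of the longest transcript, Dlg4 made up 54.7%, 49.7% and 48.9% of the MAGUK level in WT mice 1 to 3. The Ube3a m-/p+ group had 55.2%, 57.8% and 60.0%. Per kb of the transcript with the longest coding sequence, the shares of Dlg4 were 68.1%, 63.6% and 62.8% in WT mice. In the Ube3a m-/p+ group they were 68.4%, 70.7% and 72.6%. Dlg4 was at 918, 743 and 710.5 CPM in WT mice 1 to 3, and 885, 942 and 1017 CPM in the Ube3a m-/p+ group. WT mouse 1 lay within the Ube3a m-/p+ range, and the log2 fold change was 0.28 ± 0.10 (SE) with an adjusted p of 0.114. Dlg2 was at 389.8 CPM in WT mouse 1, 415 in mouse 2 and 406 in mouse 3, against 378, 328 and 288 CPM in Ube3a m-/p+ mice 1 to 3. All 3 Ube3a m-/p+ mice were below all 3 WT mice, with a log2 fold change of -0.27 ± 0.094 (SE) and an adjusted p of 0.102. Both missed the threshold after adjustment. Dlg1 (-0.038) and Dlg3 (0.041) had smaller values than their standard errors.

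The GKAP family, which links PSD-95 to SHANK, was led by Dlgap1 at 116 ± 2.3 CPM per kb in WT mice, then Dlgap3 (SAPAP3) at 76.2 ± 11.9, Dlgap4 at 57.9 ± 5.37 and Dlgap2 at 15.2 ± 1.81. Dlgap3 was at 376, 307 and 278 CPM (WT mice 1 to 3), compared with 365, 407 and 441 CPM (Ube3a m-/p+ mice 1 to 3). Ube3a m-/p+ mice 2 and 3 exceeded every WT mouse and mouse 1 did not, with a log2 fold change of 0.35 ± 0.11 (SE) and an adjusted p of 0.0789. Dlgap1 was at 818, 834 and 851 CPM in WT mice 1 to 3, and 804, 707 and 719.5 CPM in the Ube3a m-/p+ group. Each Ube3a m-/p+ mouse was below each WT mouse, by a log2 fold change of -0.15 ± 0.083 (SE) (adjusted p = 0.276). Dlgap2 and Dlgap4 had log2 fold changes of -0.034 and 0.17.

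SHANK proteins are the large scaffolds of the deeper layer of the postsynaptic density. All 3 log2 fold changes were above 0 and none was called. Shank1 was at 722 CPM in WT mouse 1, 546 in mouse 2 and 450.4 in mouse 3, against 715, 775 and 742 CPM in Ube3a m-/p+ mice 1 to 3. WT mouse 1 lay inside the Ube3a m-/p+ range and WT mice 2 and 3 below it. The log2 fold change was 0.39 ± 0.14 (SE) with an adjusted p of 0.112. Shank3, the gene affected in Phelan-McDermid syndrome, was at 453, 382 and 326 CPM (WT mice 1 to 3), compared with 412, 439 and 487 CPM (Ube3a m-/p+ mice 1 to 3). The genotypes overlapped, with a log2 fold change of 0.22 ± 0.11 (SE) and an adjusted p of 0.231. For Shank2 the log2 fold change was 0.014. In WT mice Shank1 and Shank3 were at 58.3 ± 14 and 52.6 ± 8.61 CPM per kb, and Shank2 was lower at 32.3 ± 3.56. Within each WT mouse Shank1 exceeded Shank3. Shank1 made up 43.0%, 39.8% and 38.6% of the SHANK level per kb in WT mice 1 to 3, and Shank3 36.0%, 37.1% and 37.3%.

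The Homer adaptors couple SHANK to metabotropic glutamate receptors. Homer1, whose short form is induced by activity, was at 90.5, 111 and 110.2 CPM in WT mice 1 to 3, and 102, 90.3 and 90 CPM in the Ube3a m-/p+ group. WT mouse 1 and Ube3a m-/p+ mice 2 and 3 lay within 1 CPM of each other, and the log2 fold change was -0.13 ± 0.10 (SE) with an adjusted p of 0.449. The counts are per gene, so the short and long Homer1 forms were not separated. Homer2 was at 110.5 CPM in WT mouse 1, 122 in mouse 2 and 118 in mouse 3, against 112, 89.8 and 74 CPM in Ube3a m-/p+ mice 1 to 3. Mice 2 and 3 of the Ube3a m-/p+ group were below all WT mice and mouse 1 was among them, with a log2 fold change of -0.33 ± 0.12 (SE) and an adjusted p of 0.114. Homer3 had a log2 fold change of 0.17, and 874 bp of its exons overlap Ddx49 on the opposite strand. The order of Homer2 among the Homers depended on the transcript used for length, since its longest transcript is 6.72 times as long as its transcript with the longest coding sequence. Per kb of the first it had 10.6 CPM in WT mice and per kb of the second 71.5.

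The other scaffold genes were Baiap2 (IRSp53, an actin regulator), Begain and Cnksr2 (partners of PSD-95), Iqsec1 and Iqsec2 (activators of ARF6) and Sipa1l1 (SPAR, a Rap GTPase activator of spines). Their log2 fold changes were 0.12, 0.23, -0.20, 0.066, 0.19 and -0.085. Begain (unadjusted p = 0.0246) and Cnksr2 (unadjusted p = 0.033) were the only 2 of these 6 below 0.05 before adjustment, in edgeR's quasi-likelihood test, and in opposite directions. Cnksr2, an X-linked gene, ranged from 336 to 349.9 CPM in WT mice and from 276 to 329 CPM in Ube3a m-/p+ mice, with no overlap.

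Neuroligins are the postsynaptic partners of neurexins. Nlgn1 acts mainly at excitatory and Nlgn2 at inhibitory synapses. Nlgn1 was at 87.4, 99.9 and 104 CPM (WT mice 1 to 3), compared with 88.4, 75.6 and 75.5 CPM (Ube3a m-/p+ mice 1 to 3). Ube3a m-/p+ mice 2 and 3 lay below every WT mouse, and the 2 mice numbered 1 differed by about 1 CPM. The log2 fold change was -0.26 ± 0.10 (SE) with an adjusted p of 0.116. Nlgn2 was at 338, 263 and 241 CPM in WT mice 1 to 3, and 318, 374 and 382 CPM in the Ube3a m-/p+ group. Here Ube3a m-/p+ mice 2 and 3 lay above every WT mouse and mouse 1 below WT mouse 1, with a log2 fold change of 0.37 ± 0.12 (SE) and an adjusted p of 0.0839. Nlgn3 had a log2 fold change of 0.049. The ratio of Nlgn2 to Nlgn1 in CPM was 3.86, 2.63 and 2.33 in WT mice 1 to 3, and 3.59, 4.95 and 5.07 in the Ube3a m-/p+ group. WT mouse 1 had a higher ratio than Ube3a m-/p+ mouse 1.

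Neurexins are the presynaptic receptors of neuroligins, LRRTMs and cerebellins. Nrxn2 was at 319 CPM in WT mouse 1, 254 in mouse 2 and 227 in mouse 3, against 316, 375 and 398 CPM in Ube3a m-/p+ mice 1 to 3. Mice 2 and 3 of the Ube3a m-/p+ group exceeded all WT mice and mouse 1 did not, and the log2 fold change of 0.46 ± 0.12 (SE) had an adjusted p of 0.0584, the member next to the threshold. Nrxn3 was at 208, 220.5 and 212 CPM (WT mice 1 to 3), compared with 231, 201 and 170.5 CPM (Ube3a m-/p+ mice 1 to 3). Its Ube3a m-/p+ values spanned the WT range on both sides, with a log2 fold change of -0.072 ± 0.10 (SE) and an adjusted p of 0.689. Neurexin genes have alpha and beta promoters and many splice forms, which counts per gene do not separate.

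Of the LRRTMs, postsynaptic leucine-rich repeat proteins that bind neurexins, none reached an unadjusted p of 0.05. Lrrtm1 had a log2 fold change of 0.086, Lrrtm2 of -0.19, Lrrtm3 of -0.15 and Lrrtm4, enriched in dentate granule cells, of -0.17 with no overlap between genotypes (54.9 to 59.8 CPM in WT mice and 49.3 to 51.4 CPM in Ube3a m-/p+ mice). Il1rapl1, an X-linked gene of intellectual disability that binds PTPδ, was low at 7.89 to 14.0 CPM in WT mice and 8.27 to 9.47 CPM in Ube3a m-/p+ mice, with a log2 fold change of -0.21 ± 0.20 (SE).

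The LAR-type phosphatases are presynaptic hubs for SLITRKs, SALMs and IL1RAPL1. Ptprd (PTPδ) was at 146, 173 and 181 CPM in WT mice 1 to 3, and 154, 125 and 109.7 CPM in the Ube3a m-/p+ group. Mice 2 and 3 of the Ube3a m-/p+ group were below every WT mouse, and mouse 1 was above WT mouse 1. The log2 fold change was -0.35 ± 0.12 (SE) with an adjusted p of 0.0928. Ptprs had a log2 fold change of 0.15, and Ptprf of 0.18 with no overlap (64.1 to 69.5 CPM in WT mice and 70.6 to 82.8 CPM in Ube3a m-/p+ mice), and neither reached an unadjusted p of 0.05. Ptprs was the most abundant of the 3 per length, at 87 ± 6.2 CPM per kb in WT mice, beside 16.8 ± 1.86 for Ptprd and 8.75 ± 0.357 for Ptprf.

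SLITRKs are postsynaptic ligands of these phosphatases. Slitrk4 was at 39.6 CPM in WT mouse 1, 47 in mouse 2 and 51 in mouse 3, against 41.5, 32.9 and 30.2 CPM in Ube3a m-/p+ mice 1 to 3. Ube3a m-/p+ mice 2 and 3 were below every WT mouse and mouse 1 was between WT mice 1 and 2. Its log2 fold change was -0.38 ± 0.13 (SE) with an adjusted p of 0.0914. Slitrk1, Slitrk3 and Slitrk5 had log2 fold changes of 0.070, -0.084 and -0.13. Slitrk5 had no overlap, at 106 to 112 CPM in WT mice and 96.8 to 102 CPM in Ube3a m-/p+ mice.

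SynCAMs (Cadm genes) are immunoglobulin adhesion proteins found on both sides of the cleft, and they held the called member. Cadm2 (chr16:66655421-67620908, minus strand, GRCm38) was at 328, 401 and 416 CPM (WT mice 1 to 3), compared with 297, 228 and 263 CPM (Ube3a m-/p+ mice 1 to 3). Every Ube3a m-/p+ mouse was below every WT mouse, and the smallest gap was between the 2 mice numbered 1. The log2 fold change was -0.52 ± 0.11 (SE) with an adjusted p of 0.0362 by edgeR's quasi-likelihood test. Leaving out WT mouse 2, WT mouse 3, Ube3a m-/p+ mouse 2 or Ube3a m-/p+ mouse 3 ended the call, with adjusted p values up to 0.259 and log2 fold changes between -0.62 and -0.42 over the 6 fits that leave out 1 mouse. On the opposite strand, 256 bp of the Cadm2 exons overlap 1700010K23Rik, which had 2179 counts over the 6 libraries, and the strand setting of the counts is not given in the sources used here. Cadm3 (nectin-like protein 1) was at 423, 355 and 358 CPM in WT mice 1 to 3, and 432, 464 and 503 CPM in the Ube3a m-/p+ group. All 3 Ube3a m-/p+ mice were above all 3 WT mice, WT mouse 1 being the nearest, with a log2 fold change of 0.32 ± 0.095 (SE) and an adjusted p of 0.0687. Cadm1 had a log2 fold change of -0.11. Cadm3 relative to Cadm2, in CPM, was 1.29, 0.885 and 0.859 in WT mice 1 to 3, and 1.46, 2.03 and 1.91 in the Ube3a m-/p+ group, without overlap.

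SALMs (Lrfn genes) are postsynaptic proteins that bind PSD-95 or the phosphatases. Lrfn1 (SALM2) was at 40.4 CPM in WT mouse 1, 43 in mouse 2 and 36.5 in mouse 3, against 44, 54 and 53.9 CPM in Ube3a m-/p+ mice 1 to 3. The genotypes did not overlap, but WT mouse 2 and Ube3a m-/p+ mouse 1 were about 1 CPM apart, and the log2 fold change was 0.36 ± 0.11 (SE) with an adjusted p of 0.0756. Lrfn2 and Lrfn5 had log2 fold changes of 0.19 and -0.043. The cerebellins are secreted bridges between neurexins and postsynaptic receptors. They were the 3 scarcest members, at 16 to 88 counts per library, and their log2 fold changes of 0.026 (Cbln1), -0.10 (Cbln2) and 0.063 (Cbln4) had standard errors of 0.34, 0.24 and 0.26. A change of 1.2-fold is 0.26 on that scale, about as large as these standard errors or smaller, so the values do not show whether such a change was present.

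**Figure D2:**
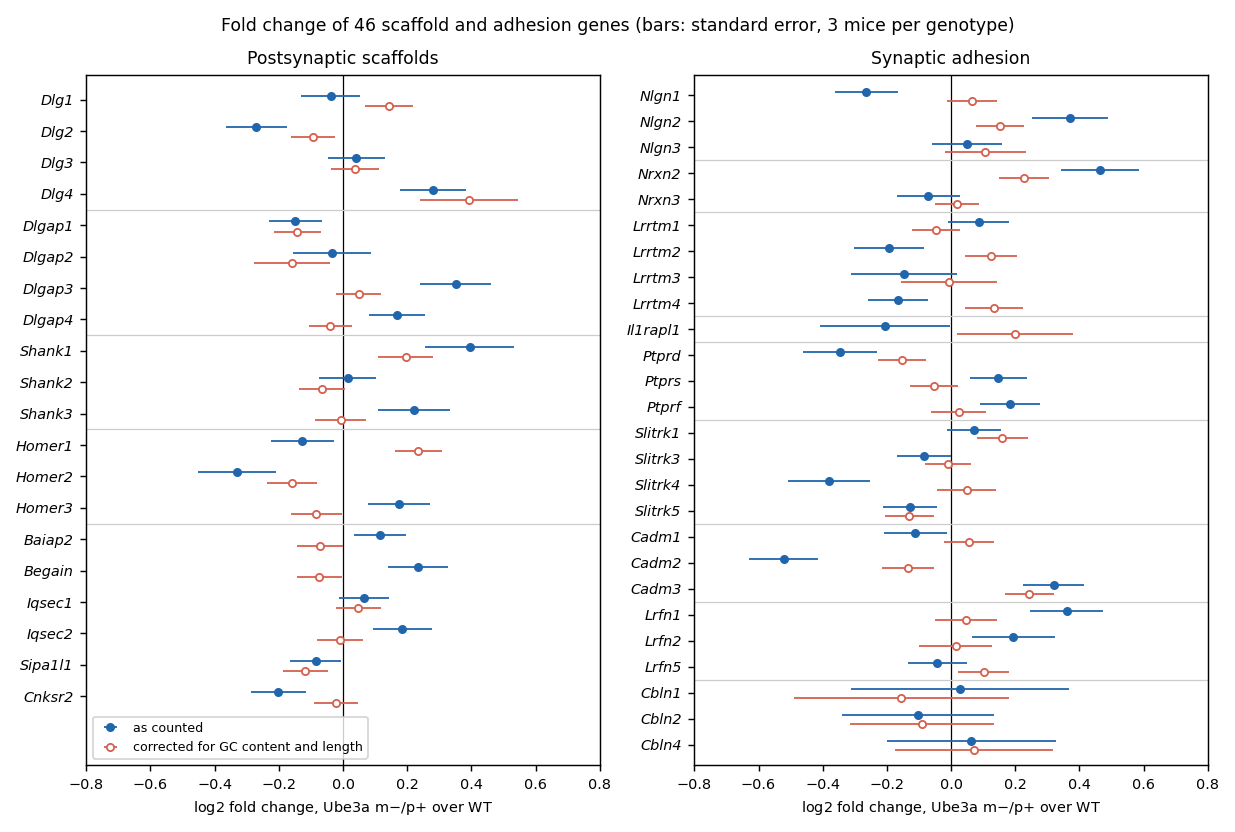
Log2 fold change (Ube3a m-/p+ over WT, 3 mice per genotype) of the 46 members, scaffolds on the left and adhesion genes on the right. Bars are standard errors derived from edgeR's F statistic, and lines separate families. Filled points are the counts as deposited and open points the fit corrected for GC content and length; Cadm2 moves from -0.52 to -0.14 and Homer1 from -0.13 to 0.23.

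The direction of a member followed the GC content of its transcript, which splits families. Of the 15 members whose longest transcript is under 45% GC, all 15 had a log2 fold change below 0. Their median was -0.20, and 7 had an unadjusted p below 0.05. The 3510 genes of that range had a median of -0.22, and 35.1% of them were lower at an unadjusted p below 0.05. Of the 17 members at 55% GC or more, 16 had a log2 fold change above 0, Dlgap2 being the exception. Their median was 0.19, and 6 had an unadjusted p below 0.05. The 3305 genes of that range had a median of 0.21, with 33.0% higher at an unadjusted p below 0.05. The 14 members in between had 8 values above 0 and 6 below. Over the 46 members the Spearman correlation between GC content and log2 fold change was 0.854, and it was 0.785 over the 20 scaffold genes and 0.908 over the 26 adhesion genes. Over the 14201 genes tested with an annotated transcript it was 0.622. These genes share the same 6 libraries, and the values are a description across genes. With the GC content of the coding sequence alone it was 0.814 over the members, and with the span of the gene on the chromosome it was -0.407.

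By mouse, the GC-poor members had median deviations from the mean of the 6 mice, on the log2 scale, of -0.0019, 0.17 and 0.20 in WT mice 1 to 3, and of 0.051, -0.13 and -0.22 in the Ube3a m-/p+ group. For the GC-rich members the medians were 0.049, -0.086 and -0.22 for WT, and 0.014, 0.11 and 0.17 for the Ube3a m-/p+ group. The 2 mice numbered 1 were thus near 0 in both ranges, and mice 2 and 3 of each genotype carried the opposite signs. Without WT mouse 1, 15 members were differentially expressed (32.6%, background 17.6%), and without Ube3a m-/p+ mouse 1 there were 12 (26.1%, background 12.5%). Without any one of the other 4 mice there were 0 in edgeR's quasi-likelihood test, with 8 to 11 members at an unadjusted p below 0.05. The share of all genes at that p in these 4 fits is not given here, so that count has no background beside it.

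**Figure D3:**
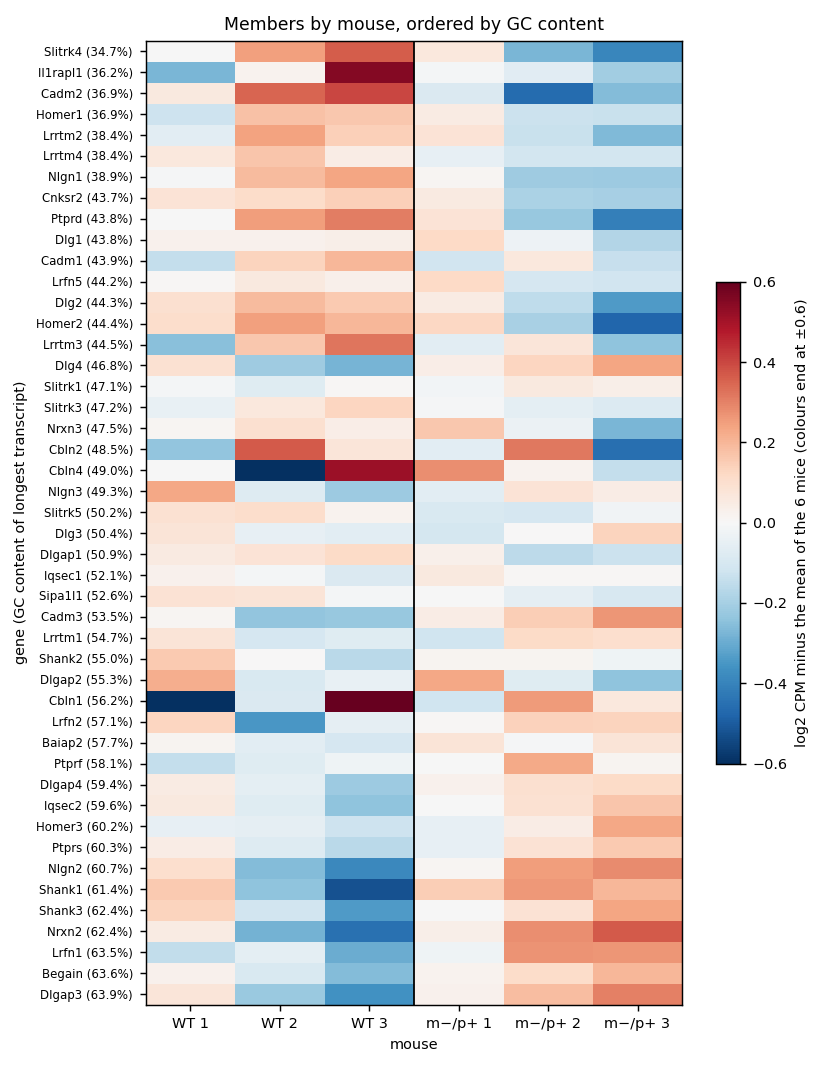
Deviation of each member's log2 CPM from its mean over the 6 mice (colour, red above and blue below, ends at 0.6), one row per gene ordered by GC content from 34.7% to 63.9% and one column per mouse. WT mice 2 and 3 are red at the top and blue at the bottom, Ube3a m-/p+ mice 2 and 3 the reverse, and the mice numbered 1 are pale in most rows.

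Correcting every library for GC content and length of the longest transcript left 0 members differentially expressed (0.648% of the genes tested). At an unadjusted p below 0.05 by edgeR there were 7 (15.2%, background 14.2%), with log2 fold changes of 0.39 for Dlg4, 0.20 for Shank1, 0.23 for Homer1, -0.16 for Homer2, 0.23 for Nrxn2, -0.15 for Ptprd and 0.24 for Cadm3. Homer1 changed sign, from -0.13 as counted. Of the 46 members, 26 kept the sign of the uncorrected value. The correlation with GC content was then -0.151. The correction fits GC content over all genes, so a value near 0 follows from it and is no test. Where the GC-related shift and the genotype cannot be told apart, the correction may also take out genotype differences. The targeted gene, Ube3a, went from -0.58 to -0.20. Nlgn1 and Slitrk4 went from -0.26 and -0.38 to 0.065 and 0.048, and Shank3 from 0.22 to -0.0072. Cadm2 depended on the transcript that the correction used. Its log2 fold change was -0.14 (adjusted p = 0.475) with the longest transcript, which is 36.9% GC, and -0.37 (adjusted p = 0.0158) with the transcript of longest coding sequence, which is 44.7% GC. That second form of the correction, added after the data were seen, also moved Dlg4 to 0.14, whose 2 transcripts are 46.8% and 55.7% GC, and Homer2 to -0.44.

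**Figure D4:**
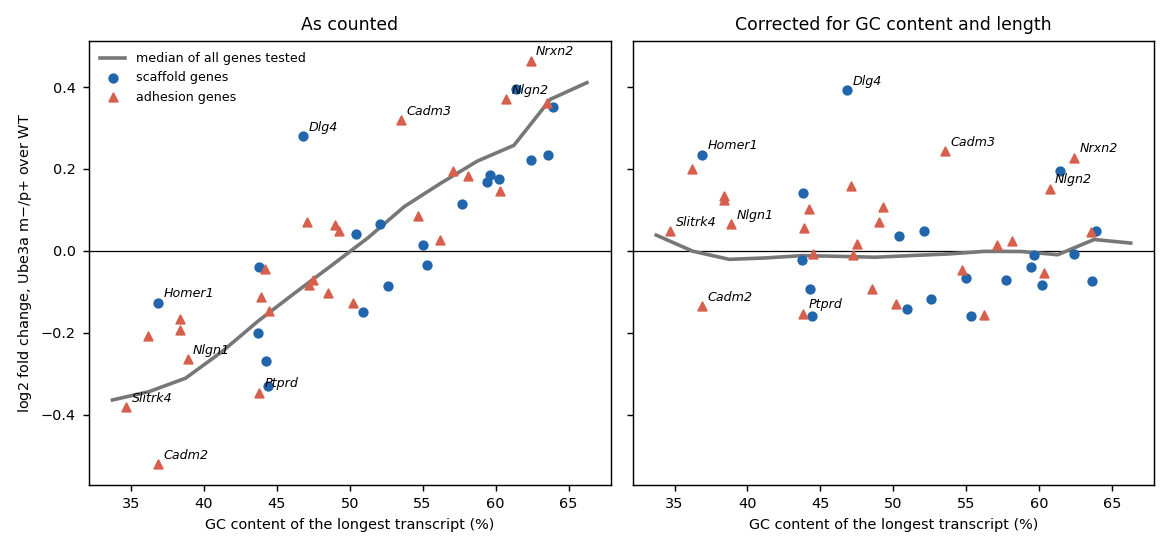
Log2 fold change of the members (circles scaffolds, triangles adhesion genes) against GC content of the longest transcript in percent, as counted (left) and corrected for GC content and length (right), with the median of all genes tested in steps of GC as a grey line. On the left the members follow the grey line, with a Spearman correlation of 0.854. On the right the correlation is -0.151, after a correction that itself removes the relation to GC content fitted over all genes.

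Within families, the ratio of the GC-richer to the GC-poorer paralogue was higher in Ube3a m-/p+ mice 2 and 3 than in each WT mouse for all 7 pairs compared. These pairs were picked with the fold changes known, each with a numerator above 0 and a denominator below 0. The shared direction of the 7 ratios follows from that choice and is no test, and other pairs were not compared. Besides the neuroligins and SynCAMs, Nrxn2 over Nrxn3 was 1.54, 1.15 and 1.07 in WT mice 1 to 3, and 1.37, 1.86 and 2.34 in the Ube3a m-/p+ group. Dlg4 over Dlg2 was 2.35, 1.79 and 1.75 for WT, and 2.34, 2.88 and 3.53 for the Ube3a m-/p+ group. Both ratios overlapped between the genotypes through the mice numbered 1. The difference between the paralogues' log2 fold changes went from 0.63 to 0.088 for Nlgn2 and Nlgn1 once corrected for GC content and length, from 0.54 to 0.21 for Nrxn2 and Nrxn3, from 0.84 to 0.38 for Cadm3 and Cadm2, and from 0.55 to 0.49 for Dlg4 and Dlg2. It was 0.40 and -0.056 for Lrfn1 and Lrfn5, 0.49 and 0.099 for Ptprs and Ptprd, and 0.51 and 0.076 for Homer3 and Homer2. Corrected on the transcript with the longest coding sequence instead, the difference was 0.23 for Dlg4 and Dlg2, 0.39 for Homer3 and Homer2, and 0.53 for Cadm3 and Cadm2, while the other 4 pairs had 0.071 (Nlgn2 and Nlgn1), 0.20 (Nrxn2 and Nrxn3), -0.067 (Lrfn1 and Lrfn5) and 0.090 (Ptprs and Ptprd).

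**Figure D5:**
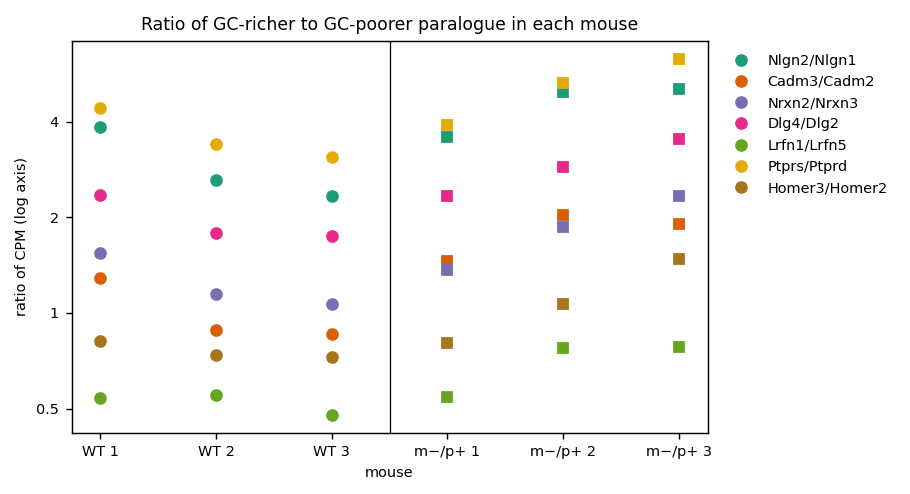
Ratio of the CPM of the GC-richer paralogue to the GC-poorer one in each mouse for 7 pairs (log axis; circles WT, squares Ube3a m-/p+). Every ratio of Ube3a m-/p+ mice 2 and 3 lies above the 3 WT ratios of its pair, while Ube3a m-/p+ mouse 1 lies near WT mouse 1, with Nlgn2 over Nlgn1 at 3.59 and 3.86. The pairs were picked with the fold changes known.

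The 90 other scaffold and adhesion genes examined, in 3 lists, showed 3 genes that rose and 1 that fell (background 2.01% in either direction), and 41 (45.6%, background 24.6%) were below an unadjusted p of 0.05. Over the 90 genes the median log2 fold change was 0.013. The background covers genes of any GC content, and it differed by GC content. Under 45% GC, 35.1% of all genes were lower at that p, and at 55% or more 33.0% were higher. Between these ranges 8.16% were higher and 6.9% lower. The 90 genes were not split by GC content, so their share has no background of like GC content. The 4 calls depended on single mice. Without WT mouse 2, WT mouse 3, Ube3a m-/p+ mouse 2 or Ube3a m-/p+ mouse 3, edgeR called 0 of the 90. In those fits 23 to 24 were at an unadjusted p below 0.05, and the share of all genes at that p is not given here. Without WT mouse 1 edgeR called 31 (background 17.6%), and without Ube3a m-/p+ mouse 1 it called 21 (background 12.5%). Among 45 further adhesion genes, Lrfn4 (SALM3) rose by a log2 fold change of 0.68 (adjusted p = 0.0362), and was at 34.5, 30.1 and 25.9 CPM in WT mice 1 to 3, and 38.7, 52.4 and 52.0 CPM in the Ube3a m-/p+ group. Among 36 further scaffold genes, Lzts3 (ProSAPiP1, a SHANK partner) rose by 0.48 (adjusted p = 0.0362), from 257, 217 and 203 CPM (WT) to 278, 319.8 and 332 CPM (Ube3a m-/p+). Of 9 genes of inhibitory postsynapses, Insyn1 was at 168, 157 and 149 CPM (WT) and 184, 208 and 225 CPM (Ube3a m-/p+), and rose by a log2 fold change of 0.40 (adjusted p = 0.042). Dmd, which encodes dystrophin, was at 70.1, 70.7 and 82.1 CPM (WT) and 57.3, 55.2 and 52.7 CPM (Ube3a m-/p+), and fell by 0.41 on the log2 scale (adjusted p = 0.0406). None of the 4 overlapped between genotypes, and their transcripts are 65.6%, 58.8%, 62.8% and 41.5% GC in that order. None of these 4 stayed below an adjusted p of 0.05 once corrected for GC content and length, where C1ql3, a synaptic organizer that had -0.30 as counted, was the 1 gene called, at -0.41 (adjusted p = 0.0136). Its level as counted was 205, 247 and 226 CPM (WT) and 187, 176 and 179.9 CPM (Ube3a m-/p+). Gphn (gephyrin), the core inhibitory scaffold, was at 82.1 to 90.7 CPM in WT mice and 73.2 to 78.5 CPM in Ube3a m-/p+ mice, with a log2 fold change of -0.18 (adjusted p = 0.232).

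Marker genes of other cells were examined as lists. The summed CPM of 6 oligodendrocyte markers was 7954 to 8070 in WT mice and 6641 to 7568 in Ube3a m-/p+ mice, but none of the 6 was called and 3 had a log2 fold change above 0 and 3 below. For 5 endothelial markers the sums were 241 to 252 and 210.3 to 223, with none called, 1 above 0 and 4 below. Microglial markers, 6 in all, summed to 288 to 295 CPM and 272 to 279 CPM, with none called, 3 above 0 and 3 below. For 4 markers of oligodendrocyte precursors the sums were 201 to 204 and 159.9 to 174, with 2 called lower and all 4 below 0. Fewer cells of a type and less RNA per cell cannot be told apart in tissue RNA. The 9 neuronal markers overlapped, at 5900 to 5953 and 5683 to 6054 CPM, with none called, as did 7 astrocyte markers at 2211 to 2249 and 2163 to 2237 CPM. Markers of the choroid plexus ranged from 99.4 to 2170 CPM within WT mice and from 105 to 2260 CPM within Ube3a m-/p+ mice. None of these was called, and all 5 had a log2 fold change above 0. The sums of 8 markers of meninges ranged from 101 to 177 and from 111 to 212 CPM, with 1 called higher and all 8 above 0. Of 6 tested markers of thalamus and striatum, 1 was called higher and 1 lower. No listed marker was at 0 in all libraries. The part of these differences in the members' values, Cadm2 included, was not tested.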

How the data were processed

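RNA of the hippocampus of 3 WT and 3 Ube3a m-/p+ mice was sequenced, 1 library per mouse. The authors deposited raw counts, the whole numbers of reads per gene symbol, made with STAR 2.7.4a and HTSeq on mm10 per the submitters' processing notes, without normalization or pooling. The annotation and the strand setting are not given in the sources used here. Lines for reads without a gene (54.1% to 55.0% of the reads listed), ambiguous reads and reads with several alignments were left out. Groups come from the sample titles, and nothing in the labels says more about how the mice were bred. With 1 library per mouse, p-values measure the spread between these libraries. The animal and the handling of its sample are not separated in that spread.

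From the counts, CPM were computed on total gene counts. The 25239 genes were filtered by filterByExpr, scaled by TMM and tested two-sided by the quasi-likelihood F test of edgeR 4.0.16 (robust, genotype as the only factor) in R 4.3.3, with Benjamini-Hochberg adjustment over 14445 genes and thresholds of 0.05 and 1.2-fold. Standard errors (SE) are the absolute log2 fold change divided by the square root of that test's F statistic. They rest partly on the spread of other genes, which the test takes into account. Members, pairs and lists were chosen with earlier results of these data known. All 46 members are named. Values by mouse are given for those differentially expressed, the 12 of smallest p and 7 central genes, 17 in all, and for the related genes that were called. Gphn, given by its range, and C1ql3, called only after the GC and length correction, were named after their values were seen. The GC and length correction used natural splines with 5 degrees of freedom on the longest GENCODE M21 transcript, fitted per library. Other alternatives were DESeq2 1.42.0, 3 other scalings, 2 filters, the replicate block, leaving out each mouse, and the transcript of longest coding sequence, the last added later. The depth was 7293272 to 11314409 gene counts per library, and the biological coefficient of variation, the spread between libraries beyond counting error, was 0.102.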

Additional observations from a re-analysis of the deposited data

How the results depend on the processing

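The direction of every one of the 46 log2 fold changes held under DESeq2, DESeq2's size factors, upper-quartile factors, no filter, the filter of 10 or more counts per library, and the replicate block. With library size only, Shank2 reversed to -0.0030. The members differentially expressed numbered 1 under the other scaling factors and the stricter filter, 7 with DESeq2, 8 with no filter, 13 by the unadjusted p with the fold change threshold, and 0 to 15 when 1 mouse was left out. The related genes called numbered 21 with DESeq2, 19 with no filter and 0 to 31 when 1 mouse was left out, and members at an unadjusted p below 0.05 were 8 to 23 when 1 mouse was left out. Over all genes, 17.6% were called without WT mouse 1 and 12.5% without Ube3a m-/p+ mouse 1. Apart from the GC and length correction on the longest transcript, no share of all genes is given for the other counts of this section. Those counts therefore cannot be set against a background. Deviations of same-numbered mice from their genotype means had correlations of -0.285, -0.177 and -0.311. These deviations include the GC-related shift, which ran in opposite directions in mice 2 and 3 of the 2 genotypes. The correlations therefore cannot show whether the numbers pair the mice. With the replicate block, 0 members and 0 related genes were called (13 members at an unadjusted p below 0.05), and Ube3a was -0.57 without passing the threshold. Ube3a was -0.73 to -0.48 when 1 mouse was left out, and passed without either mouse numbered 1. With GC and length correction, 0 members and 1 related gene were called, 7 members had an unadjusted p below 0.05, and Ube3a was -0.20. On the transcript with the longest coding sequence, an alternative chosen after seeing the data, the values were 1 member, 2 related genes, 10 members and -0.17, and with the correction and the replicate block together 0, 0, 4 and -0.19. In those 3 fits, in that order, the log2 fold changes that reversed were Dlg1 0.14, 0.11 and 0.14, Dlgap4 -0.040, -0.037 and -0.040, Shank2 -0.066, -0.072 and -0.064, Shank3 -0.0072, -0.016 and -0.011, Homer1 0.23, 0.24 and 0.24, Homer3 -0.083, -0.052 and -0.086, Baiap2 -0.072, -0.12 and -0.074, Begain -0.074, -0.066 and -0.074, Iqsec2 -0.0092, -0.012 and -0.011, Nlgn1 0.065, 0.080 and 0.063, Nrxn3 0.018, 0.028 and 0.017, Lrrtm1 -0.046, -0.028 and -0.048, Lrrtm2 0.12, 0.16 and 0.12, Il1rapl1 0.20, 0.24 and 0.22, Ptprs -0.054, -0.062 and -0.058, Slitrk4 0.048, 0.10 and 0.048, Lrfn5 0.10, 0.12 and 0.10 and Cbln1 -0.16, -0.14 and -0.10. In the first and the last alone, Lrrtm4 reversed to 0.13 and 0.14 and Cadm1 to 0.056 and 0.054. On the coding transcript alone, Iqsec1 reversed to -0.035, Lrrtm3 to 0.016 and Slitrk3 to 0.014. Values that changed sign when 1 mouse was left out ranged from -0.10 to 0.027 for Dlg1, -0.028 to 0.11 for Dlg3, -0.16 to 0.070 for Dlgap2, -0.067 to 0.10 for Shank2, -0.049 to 0.19 for Nlgn3, -0.17 to 0.028 for Nrxn3, -0.38 to 0.036 for Il1rapl1, -0.11 to 0.0027 for Lrfn5, -0.30 to 0.53 for Cbln1, -0.31 to 0.068 for Cbln2 and -0.19 to 0.37 for Cbln4. The cause of these reversals was not tested. The cerebellins, the scarcest members, had standard errors of 0.24 to 0.34 beside 0.26 for a change of 1.2-fold, and 3 mice per genotype limit the precision of every member.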
